A study of Mus musculus with 9 samples.

Results

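Expression of 10 genes of the Hoxc and Hoxd clusters was compared in mouse caudal epiblast-like cells (CEpiLCs) of 3 genotypes. The genes were Hoxc4, Hoxc5, Hoxc6, Hoxc8 and Hoxc9 on chromosome 15 and Hoxd1, Hoxd3, Hoxd4, Hoxd8 and Hoxd9 on chromosome 2. They were taken by symbol from a table of 24736 genes, and all 10 were found in it. The cultures were wild type (WT), mutant for Cdx1, Cdx2 and Cdx4 together (CdxKO), or mutant for T, also called Bra (T/BraKO), with 3 biological replicates of each. All cells were grown in N2/B27 medium with bFGF (10 ng per ml), a fibroblast growth factor, and LGK974 (5 uM), a blocker of WNT secretion. CHIR99021, which activates WNT signalling by inhibiting GSK3, was added to every culture from day 2, and RNA was collected at 72 h, on day 3. WT was the XY HM1 TetON embryonic stem cell line, and the paper states that every stem cell line it used came from this one. The labels name no second line for either mutation, so an effect of the line and of the mutation cannot be told apart.

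Hox genes encode homeodomain transcription factors that give cells along the body axis their position. They lie in clusters in which genes at the 3′ end, such as Hoxd1, are activated earlier and further forward in the embryo than genes at the 5′ end, such as Hoxc9. CDX proteins are homeodomain factors that activate trunk Hox genes in the posterior embryo downstream of WNT signalling. T is a T-box factor needed for mesoderm formation.

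Promoter sequences were inspected for 3 genes that stand for the different behaviours described here: Hoxd4 and Hoxc4, which DESeq2 called lower in CdxKO than in WT, and Hoxd1, which was not called. The call of Hoxd4 was lost in most fits that left out a library. The sequences are the RefSeq windows on GRCm38.p6, from 250 bases before to 50 bases after the listed transcript start, plus strand. Capitals mark TTTAT, the core of sites bound by CDX factors, on either strand (ATAAA where it lies on the minus strand). The Hoxd4 window is chr2:74721728-74722027, the Hoxd1 window is chr2:74762730-74763029 and the Hoxc4 window is chr15:103034145-103034444.
Hoxd4: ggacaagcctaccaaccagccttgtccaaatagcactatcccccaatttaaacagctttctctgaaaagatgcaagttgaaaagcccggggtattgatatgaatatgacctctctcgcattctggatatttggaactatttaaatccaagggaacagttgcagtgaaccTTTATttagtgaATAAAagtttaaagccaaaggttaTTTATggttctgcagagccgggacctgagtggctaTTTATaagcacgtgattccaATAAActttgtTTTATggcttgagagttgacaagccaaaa
Hoxd1: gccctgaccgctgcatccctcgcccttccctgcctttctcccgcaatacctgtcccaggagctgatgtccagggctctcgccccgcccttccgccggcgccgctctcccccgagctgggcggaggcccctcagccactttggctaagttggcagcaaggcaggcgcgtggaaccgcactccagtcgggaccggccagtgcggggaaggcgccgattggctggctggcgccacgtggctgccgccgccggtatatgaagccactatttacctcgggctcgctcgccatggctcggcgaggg
Hoxc4: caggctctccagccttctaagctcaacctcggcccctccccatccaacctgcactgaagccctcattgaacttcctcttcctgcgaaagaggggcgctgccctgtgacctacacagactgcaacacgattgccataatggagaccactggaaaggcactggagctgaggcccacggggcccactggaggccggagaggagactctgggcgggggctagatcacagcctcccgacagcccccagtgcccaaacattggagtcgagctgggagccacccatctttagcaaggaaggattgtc
The Hoxd4 window held 6 matches and the Hoxd1 and Hoxc4 windows held 0. The Hoxc4 window lies inside the RefSeq span of that gene, which runs from 103018097 to 103036856, so it covers 1 of its starts. Of 32851 promoters of the same length, 40% held at least 1 TTTAT match and 0.502% held at least 6. Hoxd3 had 1 match, while Hoxd8 and Hoxd9 had 0. The T-box letters TCACAC were found once, in Hoxd9, against 14.5% of all promoters, and the TCF/LEF letters CTTTGA were found in Hoxd8 with 2 matches, against 16% of all promoters. No window held more than 1 of the 3 motifs, so none overlapped, and a match is a description of the sequence only. 6 of the 10 genes had a promoter in the reference used here, while Hoxc5, Hoxc6, Hoxc8 and Hoxc9 had none.

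Library totals ranged from 25124337 to 34705355 counts, so that the floor of 3 counts per library lay between 0.0864 and 0.119 CPM (counts scaled to a common library total). Floors and counting intervals cover counting error only. The Cdx transcripts checked the labels: Cdx4 had 143, 62 and 143 counts in the WT libraries and 1, 2 and 2 in the CdxKO libraries. Cdx2 remained detectable in CdxKO, at 24.01 to 54.31 TPM (the share of transcripts, corrected for gene length) against 91.97 to 206.11 in WT, and Cdx1 at 7.87 to 13.43 TPM against 18.54 to 26.36. T had 61.04 to 98.47 TPM in T/BraKO and 386.37 to 510.16 in WT. Eif2s3y, Ddx3y and Uty, which are Y-linked, had 952 to 3070 counts in each WT and T/BraKO library and 0 to 3 in each CdxKO library. The CdxKO libraries therefore differed from the others by more than the Cdx genes, and the part of this difference in the results was not tested. Markers of the caudal epiblast (T, Cdx2, Nkx1-2, Wnt3a, Fgf8 and Sox2) were detected in every library, with a summed level of 796 to 1013 TPM in WT, 478 to 1001 in CdxKO and 515 to 768 in T/BraKO. Against WT, DESeq2 called Cdx2 and Wnt3a lower in CdxKO, and T, Fgf8 and Wnt3a lower in T/BraKO. With the replicate number as a block it also called Fgf8 and Nkx1-2 lower in CdxKO, and Cdx2 and Nkx1-2 higher in T/BraKO. Their part in the Hox results was not tested.

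In WT, the 10 genes were expressed at low levels. By mean TPM over the 3 libraries, Hoxc6 (2.63 ± 2.47, SD), Hoxc4 (2.59 ± 2.04) and Hoxc8 (2.21 ± 2.33) came first. Hoxd1 (1.07 ± 0.317), Hoxd4 (0.557 ± 0.593) and Hoxc5 (0.487 ± 0.514) came next. Hoxd8 (0.36 ± 0.279), Hoxd9 (0.227 ± 0.131), Hoxc9 (0.127 ± 0.0777) and Hoxd3 (0.04 ± 0.0346) were last. The ranges of each neighbouring pair in this order overlapped. The order of the means was not that of each library: in WT replicate 2 Hoxd1 (1.03 TPM) came first, and Hoxd8 (0.55) exceeded Hoxc6 (0.31) and Hoxc8 (0.18). Position in the cluster and level did not go together in a simple order: Hoxc5, between Hoxc4 and Hoxc6, was lower than both in each WT library. 7 of the 10 genes had at least 10 counts in at least 3 libraries, and Hoxc9, Hoxd3 and Hoxd9 did not. Hoxd3 did not exceed 6 counts in any library. The RefSeq span of Hoxd4 lies within that of Hoxd3 on the same strand, so reads could be divided between them and both values are uncertain. Of the more 5′ genes Hoxc10 to Hoxc13 and Hoxd10 to Hoxd13, Hoxd13, at 0.09 to 0.33 TPM in WT, had the most counts.

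**Figure D1:**
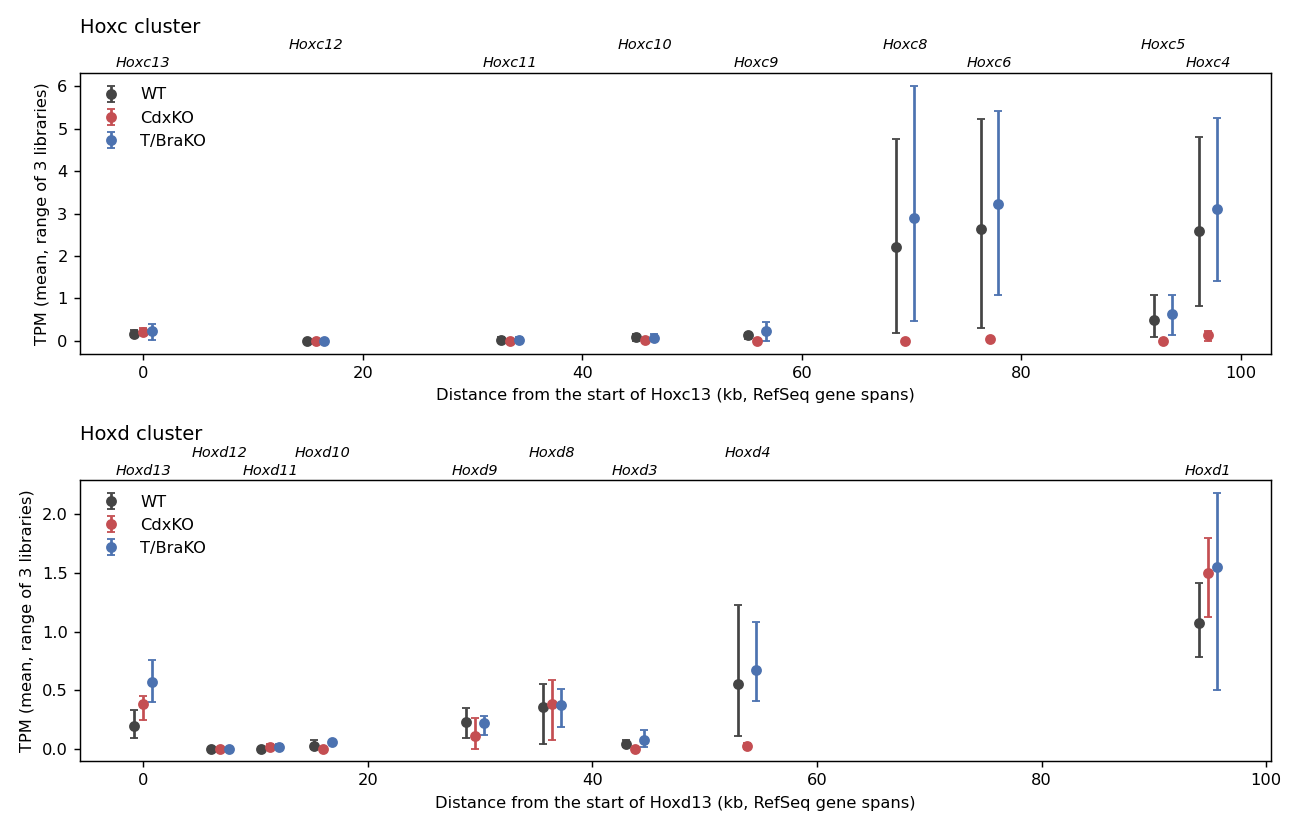
Mean TPM (points) and range over 3 libraries (bars) of every Hoxc and Hoxd gene, placed by distance in kb from the start of Hoxc13 or Hoxd13, for WT (grey), CdxKO (red) and T/BraKO (blue). Hoxc8, Hoxc6 and Hoxc4 have the highest means in WT and T/BraKO, with wide ranges, and Hoxd1 is detected in all 3 genotypes.

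CdxKO was compared with WT to ask which of these genes depend on the Cdx genes. Of the 5 Hoxc genes 4 were called lower, Hoxc4, Hoxc5, Hoxc6 and Hoxc8, and of the 5 Hoxd genes 1 was, Hoxd4. Hoxc8, a mid-thoracic patterning gene, had 156, 5.80 and 56.9 normalised counts in WT replicates 1, 2 and 3 and 0 counts in every CdxKO library. It was therefore at least 23.7-fold lower, a bound on the WT mean. Neither WT replicate 2 nor WT replicate 3 reaches this bound by itself, and the same holds for the bound of Hoxc5. Hoxc5, expressed in the cervical and upper thoracic region, had 40.5, 3.87 and 11.2 normalised counts in WT and 0 in every CdxKO library, at least 6-fold lower. Hoxc6, which is active around the forelimb level and thorax, had 114, 6.77 and 52.2 normalised counts in WT and a single count in each CdxKO library. Its ratio of WT to CdxKO was 54.4, with a 95% counting interval of 18.3 to 266. Hoxc4, the most 3′ gene of its cluster, had 132, 22.2 and 59.7 normalised counts in WT and 0, 5.36 and 6.58 in CdxKO. Hoxd4, a gene of the hindbrain and cervical region, had 43.9, 3.87 and 12.1 normalised counts in WT and 0, 1.79 and 0.941 in CdxKO, a ratio of 18.6 with a counting interval of 6.04 to 92.8. These sizes rest largely on WT replicate 1: without it, an alternative chosen after seeing the data, the bounds were 10.1-fold for Hoxc8 and 2.44-fold for Hoxc5, and the ratios were 29.7 for Hoxc6 (9.71 to 148) and 8.02 for Hoxd4 (2.32 to 42.7). For each of these 5 genes all 3 CdxKO libraries lay below all 3 WT libraries. RNA was taken from whole cultures, so fewer expressing cells and less RNA per cell cannot be told apart.

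By the Wald test of DESeq2, 5 of the 10 genes were lower in CdxKO than in WT at an adjusted p of at most 0.05 and 0 were higher. Over all genes tested, 0.358% were called lower. The log2 fold change of Hoxc4 was -4.10 (SE 0.82, adjusted p = 0.000293). Those of Hoxc5, Hoxc6, Hoxc8 and Hoxd4 were -6.62, -5.82, -8.61 and -4.34, with adjusted p of 0.00582, 0.000354, 0.00179 and 0.0476. These are model estimates for genes at or under the floor in CdxKO and do not rank the genes. The median log2 fold change of the 10 genes was -4.06, against -0.00 over all genes tested, and it was -2.58 over the 9 genes with a measurable fold when genes at the floor were set to their bound. All 3 CdxKO libraries lay below all 3 WT libraries for 7 of the 10 genes, against 4.58% of all genes tested. The other 2 of these 7 were Hoxc9, with 9 counts over the 3 WT libraries, and Hoxd3, with 5, and neither had a count in CdxKO. With the replicate number as a block, DESeq2 also called 5 genes lower, against 1.91% of all genes.

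The calls differed between tests. The edgeR quasi-likelihood test without the block called 0 of the 10 genes, and it called 0.0635% of all genes lower. An unadjusted p under 0.05 was reached in this test by 6 of the 10 genes, against 814 of 18902 genes. With the block edgeR called 5 of the 10 genes lower, against 1.93% of all genes. Without WT replicate 1, in which these genes were highest, DESeq2 called only Hoxc4 and Hoxc6, with adjusted p of 0.0793 for Hoxc8 and 0.195 for Hoxc5. Without CdxKO replicate 1 or without CdxKO replicate 3 it called 3 genes, as Hoxc5 (adjusted p = 0.0562 and 0.0586) and Hoxd4 were lost. Hoxd4 passed in only 2 of the 9 fits that each left out a library, with adjusted p from 0.00922 to 0.988. In the DESeq2 fit of the 6 WT and CdxKO libraries alone it was not called either (adjusted p = 0.104), which left 4 genes called lower.

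The other Hoxd genes gave no call in CdxKO. Hoxd1, the most 3′ member and a gene that responds early to retinoic acid, had 36.0, 26.1 and 20.5 normalised counts in WT and 46.4, 40.2 and 29.2 in CdxKO. Its log2 fold change was 0.49 (95% interval -0.56 to 1.53, adjusted p = 1). Hoxd8 had 11.3, 12.6 and 0.932 normalised counts in WT and 11.3, 13.4 and 1.88 in CdxKO, so that the same replicate was low in both genotypes. Hoxd9 had 10.1, 6.77 and 2.80 in WT and 7.52, 1.79 and 0 in CdxKO, with a log2 fold change of -1.15 (95% interval -3.29 to 0.99). Within replicate numbers, Hoxd1 was higher in CdxKO in 3 of 3 pairs, with ratios of 1.29, 1.54 and 1.42. Hoxd8 was also higher in 3 of 3, though with a ratio of 1 in replicate 1, and Hoxd9 was lower in 3 of 3. The pairs of Hoxd9 rest on 6, 2 and 0 counts in CdxKO and 9, 7 and 3 in WT. The share of all genes with such agreement was not taken. With the block the adjusted p was 0.695 for Hoxd1, and DESeq2 gave none for Hoxd8 or Hoxd9. The intervals of the log2 fold changes do not show that the levels were equal. Summed over the 5 Hoxd genes, the level was 1.26 to 3.56 TPM in WT and 1.23 to 2.55 in CdxKO, ranges that overlap. Summed over the 5 Hoxc genes it was 1.45 to 16.1 TPM in WT and 0.06 to 0.28 in CdxKO, ranges that do not.

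**Figure D2:**
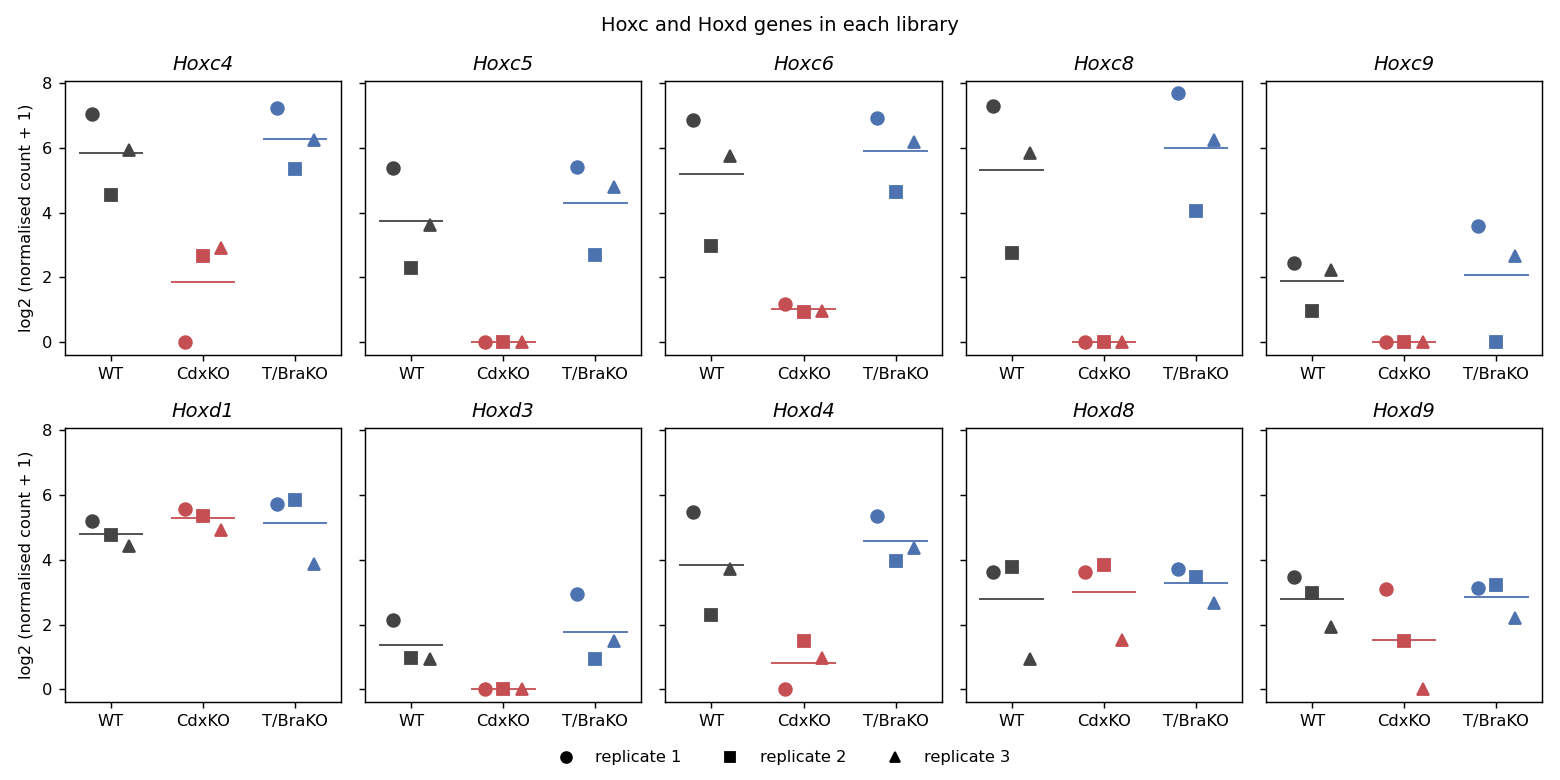
Normalised counts of the 10 genes in each of the 9 libraries, as log2 (normalised count + 1), by genotype. Symbols mark the replicate number and horizontal lines the mean of the 3 plotted values. The 3 CdxKO libraries lie below the WT libraries for every Hoxc gene and for Hoxd3 and Hoxd4, and overlap them for Hoxd1, Hoxd8 and Hoxd9.

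T/BraKO was compared with WT to ask whether T affects the same genes. No gene was called in either direction by DESeq2 or by edgeR, with or without the block, while 1.08% of all genes were called either way by DESeq2 and 9.68% with the block. None of the 10 genes had an unadjusted p under 0.05 by DESeq2 with or without the block or by edgeR without it, and 1 did by edgeR with the block. With the block DESeq2 gave an adjusted p for only 4 of the 10 genes, Hoxc4, Hoxc6, Hoxc8 and Hoxd1. Hoxc4 had 148, 39.4 and 75.3 normalised counts in T/BraKO and a log2 fold change of 0.30 (95% interval -1.10 to 1.70). Hoxc6 had 121, 23.8 and 71.8, with a log2 fold change of 0.33 (-1.31 to 1.97). Hoxc8 had 204, 15.6 and 75.3, with a log2 fold change of 0.43 (-2.46 to 3.32). The groups overlapped for all 10 genes, and the intervals leave room for changes of several fold either way. Within replicate numbers, T/BraKO was above WT for 8, 7 and 9 of the 10 genes in replicates 1, 2 and 3. The share over all genes was not taken, so these numbers do not show a rise particular to the 10 genes. Some of the pairs rest on few counts, such as 2 in T/BraKO and 1 in WT for Hoxd3 in replicate 3. For Hoxc8 the ratio of T/BraKO to WT was 1.3, 2.68 and 1.32, and with the block its log2 fold change was 0.57 (SE 0.36, adjusted p = 0.36). For Hoxd1 the ratio was 1.44, 2.17 and 0.656, so that its direction differed between replicates.

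The mutants were also compared directly, which tests whether their effects differed. This comparison shares its CdxKO libraries with the comparison against WT. By DESeq2, Hoxc4, Hoxc5, Hoxc6, Hoxc8 and Hoxd4 were lower in CdxKO than in T/BraKO. Their log2 fold changes were -4.40, -7.05, -6.16, -9.04 and -4.66 in this order. The adjusted p were 1.01e-05, 0.000415, 1.88e-05, 0.000131 and 0.00513. Over all genes tested, 0.962% were called lower. Against T/BraKO, Hoxc8 was at least 31.8-fold and Hoxc5 at least 8.02-fold lower in CdxKO. The ratio of T/BraKO to CdxKO was 68.9 for Hoxc6 (counting interval 23.3 to 337) and 23.6 for Hoxd4 (7.77 to 117). Without T/BraKO replicate 1 the bounds were 14.7-fold and 5.25-fold, and the ratios 47.7 and 17.1. The median log2 fold change of the 10 genes was -4.53, and -2.07 with genes at the floor set to their bound, against -0.01 over all genes tested. With the block DESeq2 called 5 genes, against 6.9% of all genes, and edgeR with the block called 6, against 7.11%, which added Hoxc9. Hoxc9 had 11, 0 and 5.38 normalised counts in T/BraKO. For 6 of the 10 genes all 3 CdxKO libraries lay below all 3 T/BraKO libraries, against 6.92% of all genes tested. Without the block edgeR called only Hoxc4 and Hoxc6, against 0.333% of all genes. Hoxd4 was lost without T/BraKO replicate 1 (adjusted p = 0.0744).

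**Figure D3:**
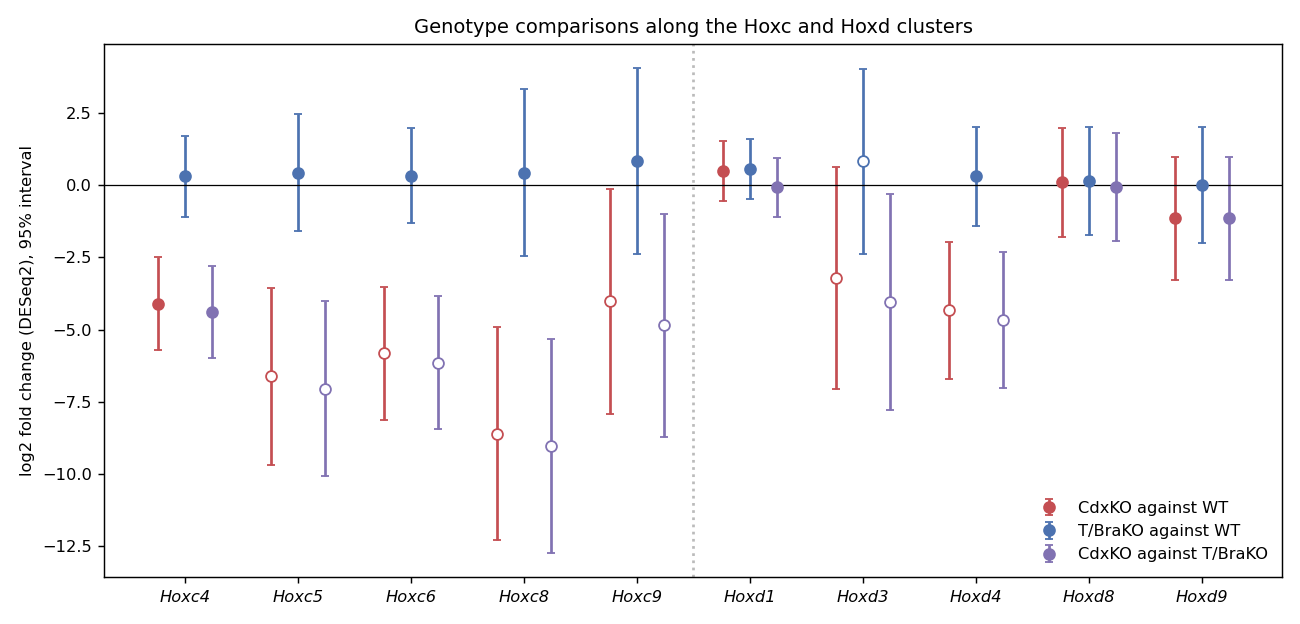
Log2 fold changes by DESeq2 with 95% intervals for the 10 genes in cluster order, for CdxKO against WT (red), T/BraKO against WT (blue) and CdxKO against T/BraKO (purple). Open circles mark genes at or under 3 counts in every library of at least 1 of the groups compared, whose estimates are not measured sizes. All T/BraKO intervals cross 0, and the CdxKO estimates are far below 0 for the Hoxc genes and Hoxd4 and near 0 for Hoxd1 and Hoxd8.

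Replicates of the same number differed together, and the Hoxc genes showed this across a wide range. In WT, the summed Hoxc level was 16.1, 1.45 and 6.6 TPM in replicates 1, 2 and 3, and in T/BraKO it was 18.2, 3.11 and 8.92. Replicate 1 was thus highest and replicate 2 lowest in both genotypes. In replicate 2 the summed Hoxd level, 1.95 TPM in WT and 3.32 in T/BraKO, was above the Hoxc sum. The ratio of replicate 1 to replicate 2 in WT was 5.92 for Hoxc4, 10.5 for Hoxc5, 16.8 for Hoxc6 and 26.9 for Hoxc8. These ratios rest on 23, 4, 7 and 6 counts in WT replicate 2, so their order along the cluster is uncertain and was not tested. In T/BraKO the same ratios were 3.75, 7.63, 5.1 and 13.1, so that Hoxc8 again had the largest and Hoxc4 the smallest, but Hoxc5 and Hoxc6 changed places. The TPM of Hoxc8 relative to Hoxc4 was 0.988, 0.22 and 0.793 in WT replicates 1, 2 and 3 and 1.15, 0.331 and 0.83 in T/BraKO. The low replicate had a smaller share of the more 5′ gene in both genotypes, an order that was not tested. It rests on 6 counts of Hoxc8 in WT replicate 2 and 17 in T/BraKO replicate 2. Replicate 1 had the smallest total count within each genotype. Rn45s, the precursor of ribosomal RNA, took 1.69%, 4.21% and 3.69% of the counts in replicate 1 of WT, CdxKO and T/BraKO and 0.343% to 0.992% in the other libraries, and its part in the Hoxc differences was not tested.

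**Figure D4:**
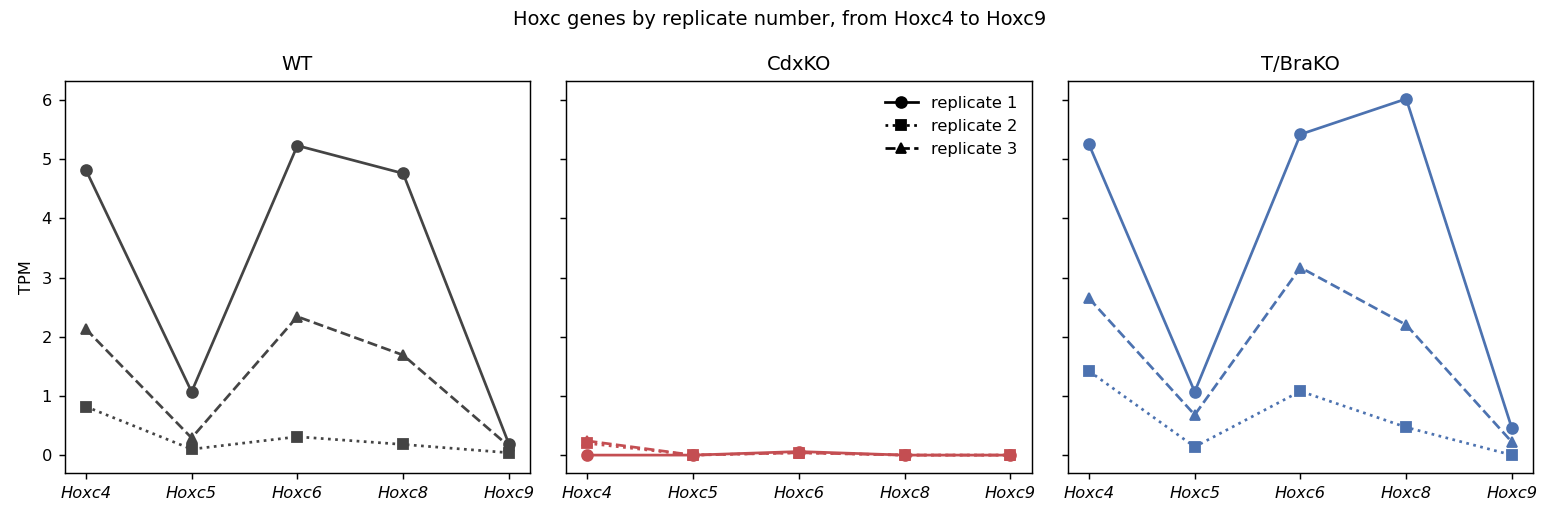
TPM of the 5 Hoxc genes in order from Hoxc4 to Hoxc9 for each replicate of WT, CdxKO and T/BraKO. In WT and T/BraKO the line of replicate 1 lies above that of replicate 3, and that of replicate 3 above replicate 2, at each gene, and all CdxKO values are at or below 0.24.

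Fitted over all 9 libraries with genotype and replicate number as terms, DESeq2 called Hoxc5, Hoxc6 and Hoxc8 higher in replicate 1 than in replicate 2, by 2.98, 2.93 and 4.02 on the log2 scale. The adjusted p were 0.00186, 1.38e-07 and 4e-15. Over all genes, 16.6% were called higher in this contrast. The call of Hoxc5 was lost without WT replicate 1, T/BraKO replicate 1 or T/BraKO replicate 2, with adjusted p up to 0.0555. Hoxc4 (log2 fold change 1.25, adjusted p = 0.341) and Hoxd4 (1.80, adjusted p = 0.0548) were not called. In the CdxKO libraries these 5 genes had between 0 and 7 counts. In the WT and T/BraKO libraries alone, a choice made after seeing the data, Hoxc4, Hoxc5, Hoxc6, Hoxc8 and Hoxd4 were called, against 8.18% of all genes, with Hoxc4 at 2.21 (adjusted p = 2.15e-06). The edgeR test of all 9 libraries also called 5 genes, against 13.5% of all genes. In replicate 3 against replicate 2, DESeq2 called Hoxc6 (2.00, adjusted p = 0.000381) and Hoxc8 (2.58, adjusted p = 8.62e-07) higher, against 21.8% of all genes. It called Hoxd8 lower (-2.23, adjusted p = 0.0294), against 20.1%. With 2 called higher and 1 lower, the 10 genes were near these shares and did not stand out by number of calls. In the WT and T/BraKO libraries alone DESeq2 called 3 genes higher, against 16.5% of all genes, and none lower. An unadjusted p under 0.05 was reached there by 4 of the 10 genes. Over all genes it was reached by 5579, in a fit that gave 13574 genes an adjusted p, so 4 of 10 did not stand out. Hoxd8 had no adjusted p in that fit (log2 fold change -1.99). The edgeR test called 3 higher and 2 lower, against 19% and 20.1%. Hoxc6 was lost without WT replicate 2 (adjusted p = 0.0627), and Hoxd8 was called in the 3 fits that left out a library of replicate 1 (adjusted p from 0.0368 to 0.0382). In the other 6 fits DESeq2 gave Hoxd8 no adjusted p, and its log2 fold change ranged from -3.15 to -1.76 over all 9. The call of Hoxd8 rested on few counts, from 2.73 normalised counts on average in replicate 3 and 12 in replicate 2.

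Hoxd1 and Hoxd8 did not follow the order of the Hoxc genes. Hoxd1 had its lowest value in replicate 3 in all 3 genotypes, at 20.5, 29.2 and 13.5 normalised counts in WT, CdxKO and T/BraKO. Hoxd8 was also lowest in replicate 3 in each genotype, at 0.932, 1.88 and 5.38. Haglr, a noncoding RNA gene that lies between Hoxd3 and Hoxd1, had 45.0, 40.6 and 14.9 normalised counts in WT, 35.1, 44.6 and 20.7 in CdxKO and 39.7, 67.8 and 27.8 in T/BraKO, with a log2 fold change of -1.27 in replicate 3 against replicate 2 (adjusted p = 0.00487). It was not called in CdxKO against WT (log2 fold change 0.00). Replicates 1, 2 and 3 differed in other genes as well. Nanog was called lower in replicates 1 and 3 than in replicate 2, and Cdx2 was called higher, with log2 fold changes of 1.14 and 0.36. Markers of caudal epiblast, epiblast, paraxial mesoderm, neural cells, endoderm and fibroblasts also moved between replicates. Their part in the Hoxc differences was not tested.

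In WT and in T/BraKO the replicates had the same order by Hoxc sum as by Cdx2 and Cdx4, but not by Cdx1. Cdx2 had 206.11, 91.97 and 124.85 TPM in WT replicates 1, 2 and 3 and 246.61, 121.14 and 157.71 in T/BraKO. Cdx4 had 7.4, 2.78 and 5.98 TPM in WT and 10.02, 5.29 and 8.07 in T/BraKO. Cdx1 had 18.54, 26.36 and 21.92 TPM in WT and 31.75, 41.86 and 31.38 in T/BraKO, highest in replicate 2. To name the genes with the most similar pattern, the profile of Hoxc4, Hoxc5, Hoxc6 and Hoxc8 over the 9 libraries (the mean of their standardised log2 values) was correlated with each of 12314 genes with a mean of at least 50 normalised counts. The 5 genes most like it were Polq, Hoxb9, Hoxb6, Hoxb8 and Hoxb7, with Pearson's r of 0.986, 0.985, 0.979, 0.974 and 0.967. Cdx4 was at rank 10 (0.956) and Cdx2 at rank 23 (0.929), while Cdx1 was at rank 510 (0.713). Likeness of pattern is not likeness of size: Polq, a DNA polymerase gene, averaged 873 normalised counts in WT and 755 in CdxKO, while Hoxb9 averaged 2011 and 22.7. For the Hoxd profile, made of Hoxd1 and Hoxd4, which differ from each other, the 5 most similar genes were Gap43, Stmn1, Cdc42bpb, Fam160b2 and Tbl1x, with r from 0.92 to 0.952. These correlations are over 9 libraries that share genotypes and replicate numbers.

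**Figure D5:**
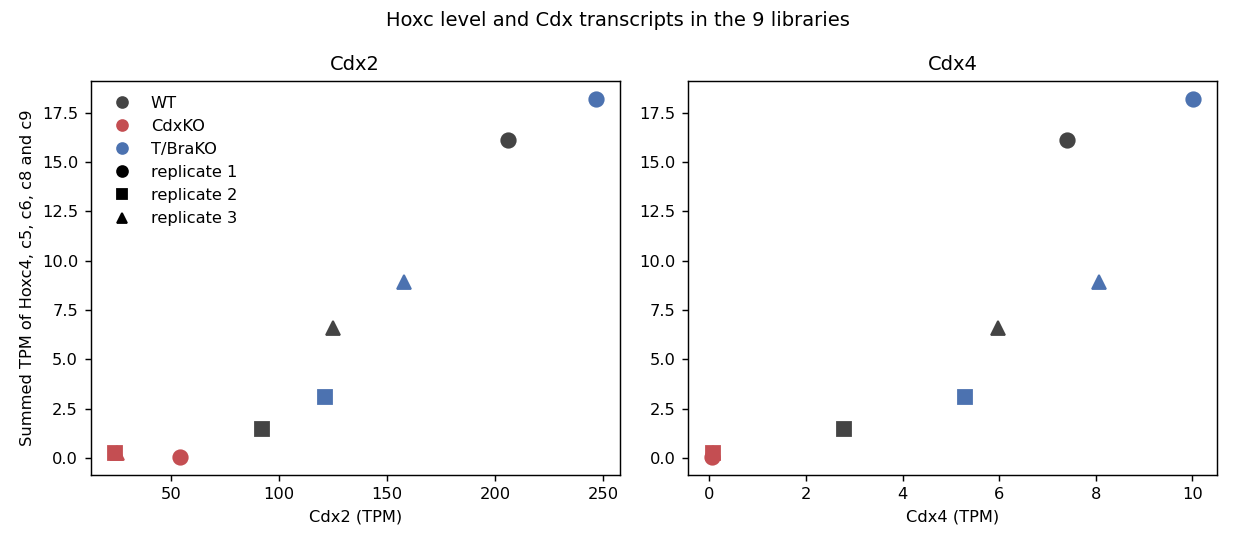
Summed TPM of the 5 Hoxc genes (vertical axis) against the TPM of Cdx2 (left) and Cdx4 (right) in the 9 libraries, with genotype by colour and replicate number by symbol. WT and T/BraKO replicate 1 are highest on both axes for Cdx2, at 206.11 and 246.61 TPM, and the CdxKO libraries are near 0 on the vertical axis.

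The other Hox clusters gave the setting for these changes. In CdxKO against WT, 7 of 10 Hoxb genes were called lower, Hoxb3 to Hoxb9, with log2 fold changes from -2.13 for Hoxb4 to -8.26 for Hoxb6, the latter at 0.418 normalised counts on average in CdxKO. Of 11 Hoxa genes, 8 had an adjusted p and Hoxa3 (-4.12) and Hoxa5 (-2.98) were called lower. The median log2 fold change of the genes with an adjusted p was -3.69 for Hoxb and -2.77 for Hoxa. Among the Hoxb genes, Hoxb1 was called higher in CdxKO with the block, with a log2 fold change of 0.79. None of the Hoxa or Hoxb genes was called in T/BraKO against WT by DESeq2 without the block, with 1 at an unadjusted p under 0.05, and with the block Hoxb6 was called higher and Hoxb1 lower. None of Hoxc10 to Hoxc13 and Hoxd10 to Hoxd13 was called against WT in either mutant by DESeq2, with 0 at an unadjusted p under 0.05 in CdxKO and 1 in T/BraKO. Only 3 of these 8 genes had an adjusted p in CdxKO and 6 in T/BraKO, and Hoxc12 and Hoxd12 had 0 counts in every library. The gene at an unadjusted p under 0.05 was Hoxd13, with 11.3, 2.90 and 6.53 normalised counts in WT and 14.3, 26.6 and 19.7 in T/BraKO (log2 fold change 1.58, adjusted p = 0.454). Of 8 genes that flank the clusters, none was called in CdxKO against WT, with 0 at an unadjusted p under 0.05, or 2 with the block. None was called in T/BraKO without the block, with 2 at an unadjusted p under 0.05. With the block, Hnrnpa1 was called lower in T/BraKO (unblocked log2 fold change -0.36) and Mtx2 higher (0.21). Of 6 noncoding genes of the clusters, 0 were called by DESeq2 against WT in either mutant, with 0 at an unadjusted p under 0.05. An adjusted p was given for only 1 of the 6 in CdxKO and for 2 in T/BraKO.

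Markers of other cells the cultures could hold were compared as well. Embryonic stem cells were kept on fibroblast feeders, which the methods removed by letting them adhere before differentiation, and fibroblasts express Hox genes. The 10 fibroblast markers (Col1a1, Col1a2, Col3a1, Postn, Dcn, Lum, Thy1, Twist2, Prrx1 and Fbn1) summed to 40.1 to 66.1 TPM in WT, 48 to 84.3 in CdxKO and 38.9 to 62.3 in T/BraKO, with none at 0. In CdxKO the range of these markers overlapped that of WT. By DESeq2 without the block 0 were called, with 3 at an unadjusted p under 0.05. With the block Thy1 was called lower and Col1a1 and Col1a2 higher. In T/BraKO, Postn was called lower, and with the block Col1a1 and Col1a2 were too. The part of the fibroblast and paraxial mesoderm markers in the Hox results was not tested. Msgn1 and Tbx6, of the latter, were called lower in T/BraKO. Paraxial mesoderm markers summed to 28.6 to 52 TPM in WT, 16 to 72.1 in CdxKO and 6.02 to 8.35 in T/BraKO. Neural markers summed to 8.65 to 22.2, 4.17 to 11.2 and 4.44 to 14.5 TPM in the same order, definitive endoderm markers to 7.85 to 18.6, 6.22 to 24.3 and 4.07 to 12.5, and epiblast markers to 729 to 1201, 977 to 1317 and 1092 to 1571. None of these 3 lists had a gene called against WT by DESeq2 without the block, with 1 neural marker in CdxKO and 1 epiblast marker in T/BraKO at an unadjusted p under 0.05, and their part in the Hox results was not tested. With the block, Irx3 was called lower and Pou5f1 higher in both mutants, and Foxa2 lower in T/BraKO.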

How the data were processed

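The authors made stranded libraries of poly(A) RNA from 9 cultures and sequenced them from 1 end. Per the labels, adapters were trimmed with cutadapt 1.16 and reads were aligned with STAR 2.5.2a and quantified with RSEM 1.3.0 on RefSeq genes of mm10. The authors deposited expected counts per gene, which need not be whole (3.75% to 4% were fractional), and TPM, which RSEM corrects for gene length. Groups and replicate numbers came from the sample labels.

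Expected counts were rounded and tested with the Wald test of DESeq2 1.42.0 in R 4.3.3 over all 9 libraries, with Benjamini-Hochberg adjustment over all genes and a threshold of 0.05. Genotype comparisons had genotype as the only term, and contrasts of replicate numbers had genotype and replicate. Normalised counts are counts divided by DESeq2 size factors. An adjusted p that DESeq2 left out was kept as missing. TPM was not tested. Same-numbered libraries deviated together: the correlation of their deviations from the genotype mean over 12316 genes was 0.532 to 0.814 in 9 pairs. The average of -0.34 in the 18 pairs of different numbers largely follows from this, as deviations cancel within a genotype. The numbers were therefore used as a block in alternative genotype fits. No 2 replicates agreed within sampling noise. Where every library of a group had 0 counts, the fold is a bound against 3 counts per library scaled by size factor. With 1 to 3 counts in each library at most, the ratio of summed counts has an exact 95% interval.

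The genes named are the 10 cluster genes, the targeted genes, called members of the other Hox, flanking, noncoding and marker lists, and the 5 genes most like each profile. Ddx3y, Uty, Eif2s3y, Hoxd13, Haglr, Rn45s and Nanog were named after their values were seen. The cluster genes and all lists were chosen with earlier results of these data known. Alternatives were TMM factors, a filter of 10 counts in 3 libraries, edgeR 4.0.16, the block, fits to the 6 libraries compared, a threshold of 0.01, leaving out each library and Spearman's correlation. Scripts were tested on simulated data. Promoters and spans are from RefSeq on GRCm38.p6, the assembly of mm10. P-values measure the spread between the replicates, which the labels call biological.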

Additional observations from a re-analysis of the deposited data

Results flagged for a closer look

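Each mutant's effect against WT differed for 5 genes, as tested by the direct comparison of CdxKO with T/BraKO by DESeq2. The log2 fold changes were -4.40 for Hoxc4, -7.05 for Hoxc5, -6.16 for Hoxc6, -9.04 for Hoxc8 and -4.66 for Hoxd4. All but that of Hoxc4 rest on CdxKO libraries at or under 3 counts. Groups of 3 libraries were too small for a search for outlying libraries.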

How the results depend on the processing

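Of 755 log2 fold changes of single genes under alternative settings, 687 kept their direction and their side of the threshold, 25 lost a call, 12 gained one and 31 changed sign, none of the last with a call in the test as reported. A further 10, of genes called in the test as reported, had no adjusted p. Where a gene was not called as reported, a fold without an adjusted p was counted as keeping its side of the threshold. The 687 therefore include folds without an adjusted p, such as those of Hoxc9 in the DESeq2 genotype fits with the block. The cause of these changes was not tested. With the edgeR quasi-likelihood test the genes called lower went from 5 to 0 in CdxKO against WT and from 5 to 2 in CdxKO against T/BraKO. In replicate 1 against replicate 2 the genes called higher went from 3 to 5 with edgeR and, an alternative added after seeing the data, in the WT and T/BraKO libraries alone. In replicate 3 against replicate 2 the genes called lower went from 1 to 2 with edgeR, and to 0 at a threshold of 0.01, in the 6 libraries compared and in the WT and T/BraKO libraries alone. In the last pair of fits Hoxd8, the gene called, had no adjusted p, with log2 fold changes of -2.35 and -1.99. The replicate block changed no call of the 10 genes between genotypes, with 5 genes lower in CdxKO against either group. It turned the sign of Hoxd1 in CdxKO against T/BraKO, from -0.08 to 0.05. In the WT and T/BraKO libraries alone, Hoxd8 in replicate 1 against replicate 2 was at 0.01.

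Leaving out each library gave 2 to 5 genes lower in CdxKO against WT, 2 to 5 higher in replicate 1 against replicate 2, and 1 to 3 higher and 0 to 1 lower in replicate 3 against replicate 2. In T/BraKO against WT the log2 fold changes ranged from -0.31 to 1.09 for Hoxc4, -0.19 to 1.71 for Hoxc5, -0.27 to 1.29 for Hoxc6, -0.68 to 1.65 for Hoxc8, -0.18 to 1.42 for Hoxc9, -0.36 to 1.70 for Hoxd3, -0.21 to 1.62 for Hoxd4 and -0.38 to 0.62 for Hoxd8. They ranged from -0.44 to 0.59 for Hoxd8 in CdxKO against WT, and in CdxKO against T/BraKO from -0.50 to 0.25 for Hoxd1 and -0.51 to 0.43 for Hoxd8. Between replicates 1 and 2 they ranged from -0.04 to 0.53 for Hoxd1 and -0.44 to 0.19 for Hoxd8, and between replicates 3 and 2 from -0.13 to 0.65 for Hoxd3 and -0.22 to 0.98 for Hoxd4. By Spearman's correlation 2 of the 5 genes named for the Hoxc profile and 1 of the 5 for the Hoxd profile stayed among the first 5. Depth limits Hoxc9, Hoxd3 and Hoxd9, which had at most 10, 6 and 9 counts in any library.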
